A study of Mus musculus with 6 samples.

Results

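Interleukins are the cytokines that pass signals between leukocytes and between leukocytes and tissue cells, and the genes described here are those of interleukins and of their receptor chains in whole mouse lung. They were chosen by symbol: every gene whose platform symbol starts with Il and a digit, measured by a probe set (the group of probes summarised as 1 value) that carries exactly 1 symbol. The cytokines of type 2 immunity and their receptors were left out (Il4, Il4ra, Il5, Il5ra, Il13, Il13ra1, Il13ra2, Il25, Il33 and Il1rl1). This gave 67 of the 19935 genes tested: 31 ligands, 31 receptor chains, 4 antagonists or binding proteins, and Il1bos, a long non-coding RNA gene named as the opposite strand of Il1b. Il1r1, Il2rg and Il11ra1 had no probe set listed under their symbols and were not analysed here.

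Lung RNA of 3 wild-type samples and of 3 samples transgenic for Scnn1b (Scnn1b-Tg), each on a C57BL/6 background, was hybridised to Affymetrix arrays, 1 per sample. Scnn1b codes for a subunit (β) of the sodium channel of epithelia. The transgenic line known by this name carries it under a promoter of airway club cells and develops airway mucus and inflammation, but the promoter, the age and the sex of the animals are not given in the labels used here. The stated purpose was a search for candidate genes of emphysema. The labels do not state whether each sample is its own animal, and p-values therefore measure the spread between samples, which may be technical.

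Interleukins act through receptors built of several chains, and whole families share a chain, so a cell responds to a cytokine only if it makes the private chain as well. Members of the IL-1 family signal through an adaptor shared with Toll-like receptors and are held back by a receptor antagonist, a decoy receptor and a binding protein. Most other interleukins signal through Janus kinases and STAT factors. In lung, alveolar macrophages, lymphoid cells and airway epithelium are known sources and targets of these cytokines.

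Intensities are RMA values on a linear scale, with array medians between 47.6 and 48.5 and array minima between 18.3 and 18.6. Scnn1b read 108 to 172 on the wild-type arrays and 1333 to 1527 on the transgenic arrays, in the direction of the labels. It was the only gene called in limma at an adjusted p under 0.05. The lung markers Sftpc and Ager read at least 7241 and at least 2160 on every array. Wild type replicate 2 and Scnn1b-Tg replicate 3 stood apart from the other arrays on the first and the second principal component, so log2 fold changes without both of them are given beside Il1rn, Il7r, Il18, Il17ra and Il9r. Because whole lung was measured, fewer cells of a type and less RNA per cell cannot be told apart.

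None of the 67 genes was called in limma after Benjamini-Hochberg adjustment over all genes, against 0.00502% of all genes called. The smallest adjusted p among them was 0.275. With an unadjusted p under 0.05, 7 genes were higher, against a background of 3.96% of all genes, and 1 lower gene, against 2.05%, together 8 of 67 (11.9%) against 6.01% of all genes. The higher genes were Il1rn, Il7r, Il17ra, Il9r, Il1r2, Il1a and Il1b, and the lower gene was Il18. The arrays of the genotypes did not overlap for 11 members, with 10 wholly higher in Scnn1b-Tg (14.9% of members against 6.26% of all genes) and 1 wholly lower (1.49% against 4.41%). The median log2 fold change of the members was 0.011, beside 0.0052 over all genes, and 52 of 67 members (77.6%) lay within 0.1 of 0, as did 79.1% of all genes. The share of members near 0 was thus close to that of all genes. At least 0.2 from 0 lay 5 members (7.46%), beside 4.14% of all genes. Of the 67 members 34 (50.7%) were among the dimmest 33.3% of all genes. The sign of 39 members, all within 0.10 of 0, turned under at least 1 of the 15 other settings tried.

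**Figure D1:**
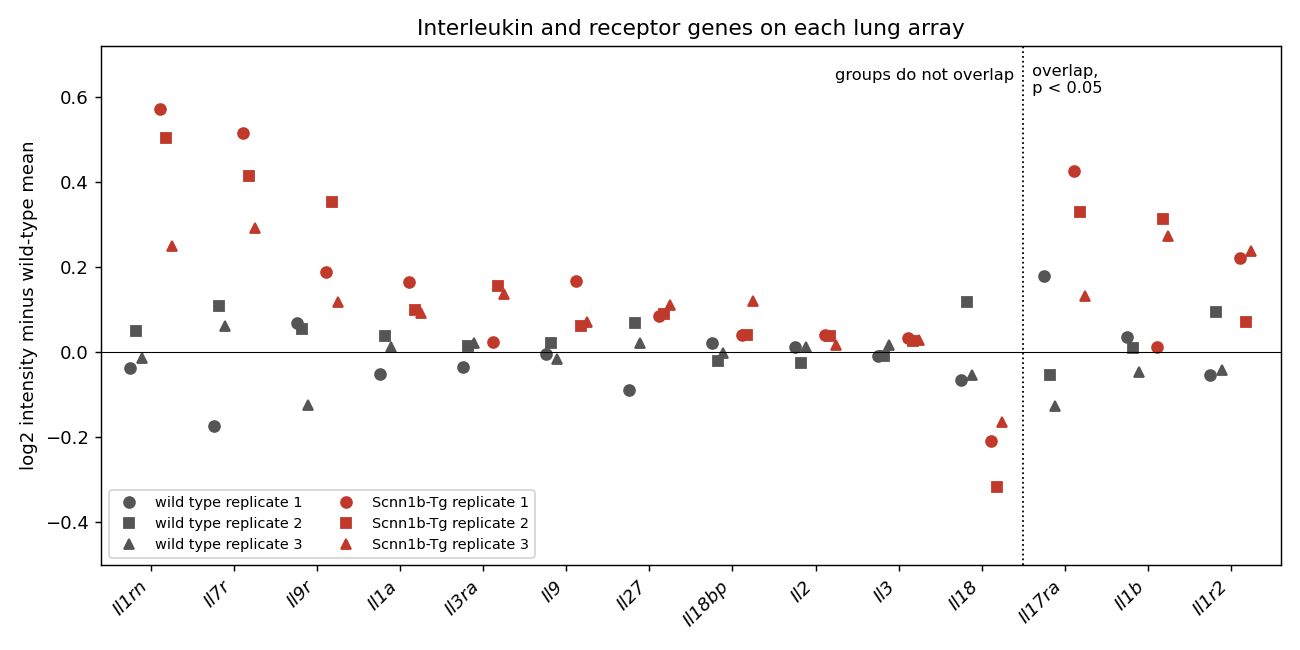
Log2 intensity minus the wild-type mean (y axis) on each of the 6 arrays for the 11 genes whose genotypes do not overlap and, right of the dotted line, the 3 further genes with an unadjusted limma p under 0.05; grey is wild type, red Scnn1b-Tg, and marker shape gives the replicate. Il1rn and Il7r show the widest distance between genotypes, Il18 is the only gene with all red points below the grey ones, and the points of Il2 and Il3 lie close together.

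Within the IL-1 family, the antagonist gene had a log2 fold change further from 0 than that of either agonist, a difference that was not tested. Il1rn encodes the IL-1 receptor antagonist, which occupies the IL-1 receptor without triggering it. Its intensity was 54.3, 57.7 and 55.2 on wild-type replicates 1 to 3 and 82.8, 79.0 and 66.2 on the transgenic ones. All transgenic arrays were higher, and replicate 3 was the lowest of them. The log2 fold change was 0.44 ± 0.09 (SE, n = 3 and 3), or 1.36-fold, with a limma adjusted p of 0.275 and a rank of 95 by p-value among all genes. With single arrays left out it lay between 0.38 and 0.54, and without both arrays that stood apart it was 0.56 (adjusted p = 0.171, from 0.0879 to 0.824 over all alternatives).

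The 250 bases before annotated start sites are shown for the genes that lead in each direction and for the agonist Il1a, so that the upstream sequence of genes with opposite values can be set side by side. Sequences are RefSeq's, build GRCm38.p6, 5′ to 3′ on the gene's strand. Of the 67 members 51 matched the promoter table, with 61 start sites. Il1rn has 3 listed starts, of which the first (chr2:24336610-24336859, + strand) and the third (chr2:24345121-24345370, + strand) are given. The others are Il7r (chr15:9529877-9530126, − strand), Il18 (chr9:50554450-50554699, + strand) and Il1a (chr2:129309973-129310222, − strand). Capitals mark matches to any of 4 motifs searched on both strands: TTCNNNGAA of STAT factors, TGANTCA of AP-1, the GAGGAA core bound by PU.1, and the NF-κB consensus.
Il1rn, start 1: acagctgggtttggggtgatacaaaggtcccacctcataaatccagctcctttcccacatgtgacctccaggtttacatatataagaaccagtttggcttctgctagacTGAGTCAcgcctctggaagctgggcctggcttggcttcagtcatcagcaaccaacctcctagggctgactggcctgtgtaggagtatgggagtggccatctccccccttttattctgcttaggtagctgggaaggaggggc
Il1rn, start 3: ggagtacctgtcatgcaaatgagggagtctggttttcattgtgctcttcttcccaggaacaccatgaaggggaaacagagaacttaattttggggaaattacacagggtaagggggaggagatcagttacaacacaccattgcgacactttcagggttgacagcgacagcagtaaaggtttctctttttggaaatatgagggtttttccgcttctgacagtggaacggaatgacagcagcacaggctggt
Il7r: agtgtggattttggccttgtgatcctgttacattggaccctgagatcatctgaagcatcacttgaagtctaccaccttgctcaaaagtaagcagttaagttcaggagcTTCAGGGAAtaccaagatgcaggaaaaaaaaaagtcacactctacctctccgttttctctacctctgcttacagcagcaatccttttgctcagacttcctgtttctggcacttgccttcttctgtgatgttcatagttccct
Il18: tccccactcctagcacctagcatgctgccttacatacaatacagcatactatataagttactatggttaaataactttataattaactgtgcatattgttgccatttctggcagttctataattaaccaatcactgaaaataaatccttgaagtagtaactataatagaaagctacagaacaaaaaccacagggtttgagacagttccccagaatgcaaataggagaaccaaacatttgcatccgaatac
Il1a: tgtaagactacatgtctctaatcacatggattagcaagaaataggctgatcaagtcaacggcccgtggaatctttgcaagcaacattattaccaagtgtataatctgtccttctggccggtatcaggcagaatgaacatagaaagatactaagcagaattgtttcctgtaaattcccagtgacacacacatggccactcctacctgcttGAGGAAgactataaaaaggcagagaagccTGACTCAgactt
The first Il1rn start has 1 AP-1 match, Il7r has 1 STAT match, and Il1a has 1 PU.1 and 1 AP-1 match, none of which overlap each other. The Il18 window and the window of the third Il1rn start hold none of these letters. TTCNNNGAA stood before 9 of the 61 member starts (14.8%) and before 7.02% of all 32851 starts in the table. TGANTCA stood before 12 (19.7%) beside 6.75% of all, GAGGAA before 18 (29.5%) beside 23.3%, and the NF-κB consensus before 5 (8.20%) beside 7.25%. These matches are letters in a window and were not set against binding data.

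The IL-1 agonists had smaller values than the antagonist. Il1a, which encodes the cell-associated agonist IL-1α, read 22.2, 23.6 and 23.2 in wild type, and the transgenic arrays read 25.8, 24.7 and 24.5. The genotypes did not overlap, but all values lay within a few units of the array minimum, and the log2 fold change was 0.12 ± 0.05 (SE; limma adjusted p = 0.785). Il1b, the gene of the secreted agonist IL-1β, read 44.2, 43.4 and 41.7 against 43.4, 53.5 and 52.0. Scnn1b-Tg replicate 1 lay among the wild-type arrays and the other 2 above them, with a log2 fold change of 0.20 ± 0.08 (adjusted p = 0.822). Without that array the value for Il1b was 0.29, and that for Il1rn was 0.38. The 95% intervals with all arrays were 0.24 to 0.64 for Il1rn, 0.0026 to 0.40 for Il1b and 0.0084 to 0.23 for Il1a. Il1bos gave 0.04 ± 0.05.

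Of the IL-1 receptor chains, the decoy had the largest value. Il1r2 encodes a receptor that binds IL-1 and does not signal. It read 28.5, 31.6 and 28.7 in wild type and 34.5, 31.1 and 34.8 in Scnn1b-Tg, so that wild type replicate 2 and Scnn1b-Tg replicate 2 overlapped, with a log2 fold change of 0.18 ± 0.07 (adjusted p = 0.764). Il1rap, the accessory chain shared by the signalling IL-1 receptors, gave -0.07 ± 0.08, with a 95% interval from -0.26 to 0.12. Il1rl2, the receptor of the IL-36 cytokines, gave -0.0064 ± 0.09. The IL-36 genes Il1f6, Il1f8 and Il1f9, their antagonist gene Il1f5 and the related Il1f10 lay between -0.03 and 0.06.

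Il18 was the only member wholly lower in Scnn1b-Tg lung. IL-18 is a cytokine of the IL-1 family that drives interferon-γ production and is made by epithelium and macrophages. The wild-type arrays read 35.7, 40.6 and 36.1 and the transgenic arrays 32.4, 30.02 and 33.4. The highest transgenic value lay below the lowest wild-type value, and the log2 fold change was -0.23 ± 0.07 (SE), with a 95% interval from -0.39 to -0.07 and an adjusted p of 0.657. With single arrays left out it lay between -0.26 and -0.17. Without both arrays that stood apart it was -0.20. Il18bp, the soluble protein that neutralises IL-18, read 72.2, 70.1 and 71.1 against 73.1, 73.2 and 77.3, separate between genotypes but with a log2 fold change of only 0.07 ± 0.04. Il18r1, the binding chain of the IL-18 receptor, gave -0.12 ± 0.08, and -0.21 without both arrays. Il18rap, its signalling partner, gave 0.13 ± 0.16, between 0.02 and 0.29 with single arrays left out (the highest without wild type replicate 2) and 0.40 without both.

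**Figure D2:**
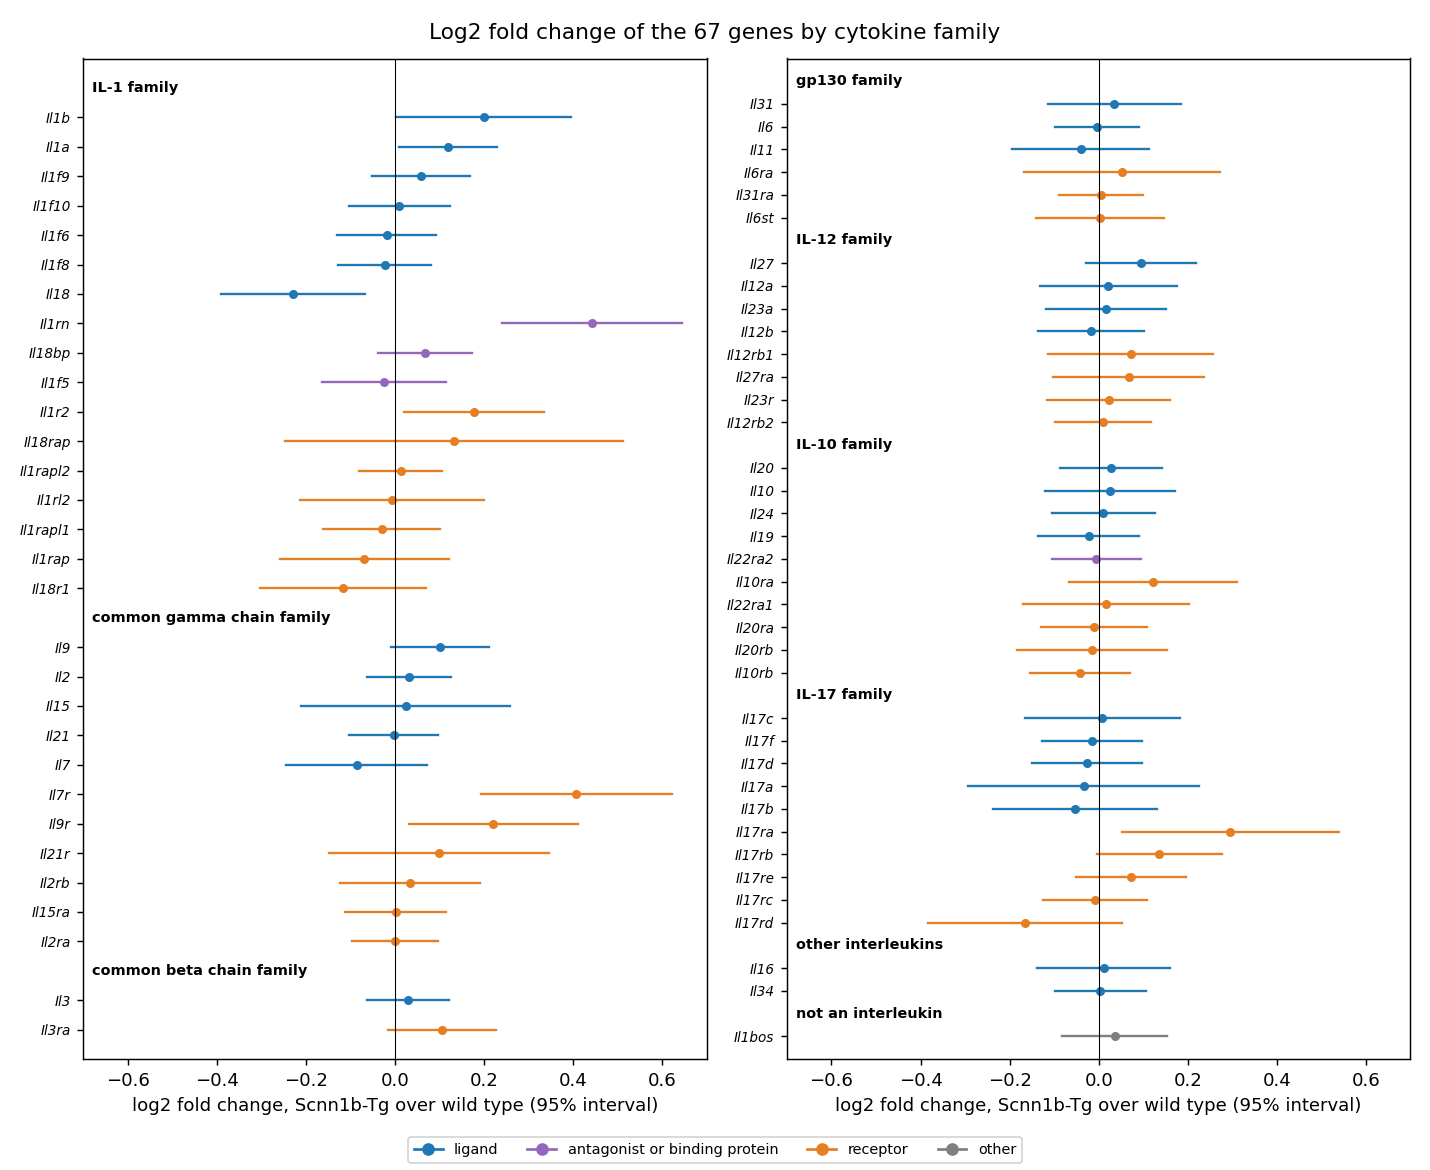
Log2 fold change of Scnn1b-Tg over wild type (x axis) with the 95% interval of the limma fit for each of the 67 genes, grouped by cytokine family and coloured by role. Most intervals span 0; Il1rn, Il7r, Il17ra, Il9r, Il1r2, Il1a and Il1b lie to the right of it and Il18 to the left.

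In the family that signals through the common γ chain, the receptor genes Il7r and Il9r lay furthest from 0. Il7r, the α chain of the IL-7 receptor on T cells and innate lymphoid cells, read 50.6, 61.5 and 59.5 in wild type and 81.5, 75.9 and 69.8 in Scnn1b-Tg. Every transgenic array exceeded every wild-type array, with a log2 fold change of 0.41 ± 0.09 (SE), 1.33-fold, and an adjusted p of 0.398. With single arrays left out it lay between 0.32 and 0.46, and it was 0.52 without both arrays that stood apart (adjusted p = 0.335, from 0.158 to 0.923 over all alternatives). Il9r, the IL-9 receptor, known on mast cells and lymphoid cells, read 37.1, 36.6 and 32.4 against 40.2, 45.1 and 38.3. The genotypes were separate there too, with a log2 fold change of 0.22 ± 0.08 (adjusted p = 0.760), and 0.30 without both arrays that stood apart. Il7, the cytokine that Il7r binds, gave -0.09 ± 0.07 (95% interval -0.24 to 0.07), with overlapping genotypes, and -0.0025 without both arrays. Il9 read 26.9, 27.4 and 26.7 against 30.3, 28.2 and 28.4, wholly higher in Scnn1b-Tg at a log2 fold change of 0.10 ± 0.05 (adjusted p = 0.849).

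The other γ-chain receptor genes lay between -0.0002 for Il2ra and 0.10 for Il21r, which turned to -0.0018 without Scnn1b-Tg replicate 3 and to -0.08 without both arrays, with Il2rb at 0.03 and Il15ra at 0.0016. Their ligands Il2, Il15 and Il21 lay between -0.0033 and 0.03. Il2 was separate between genotypes by 0.03 ± 0.04 at a mean intensity of 21.6 ± 0.33 (SD, n = 3) for wild type and of 22.1 ± 0.20 for the transgenic arrays, close to the array minimum. It overlapped after quantile normalization or median centring of the arrays. In the common β chain family the receptor of IL-3, Il3ra, read 73.7, 76.2 and 76.7 in wild type and 76.8, 84.2 and 83.0 in Scnn1b-Tg. The lowest transgenic array stood just above the highest wild-type one, with a log2 fold change of 0.11 ± 0.05 (adjusted p = 0.867), and the separation was lost under both of those normalizations. Il3 read between 19.5 and 20.03 on all arrays and gave 0.03 ± 0.04.

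In the IL-17 family the genes furthest from 0 were the receptor chains Il17ra, Il17rd and Il17rb. Il17ra encodes the receptor chain that IL-17 cytokines share, with which epithelium and stroma answer by making chemokines for neutrophils. It read 82.8, 70.4 and 66.9 in wild type and 98.1, 91.8 and 80.03 in Scnn1b-Tg. Wild type replicate 1 lay above Scnn1b-Tg replicate 3, so the genotypes overlapped, and the log2 fold change was 0.30 ± 0.10 (SE; adjusted p = 0.757), between 0.23 and 0.39 with single arrays left out, and 0.35 with both arrays that stood apart removed. Il17rb, a chain that binds IL-17B and IL-25, gave 0.14 ± 0.06 (adjusted p = 0.822), with the lowest transgenic array inside the wild-type range. Il17re, the chain for IL-17C, gave 0.07 ± 0.05, and Il17rc, the partner of Il17ra for IL-17A and IL-17F, -0.0076 ± 0.05. Il17rd, an inhibitor of growth factor signalling that also joins Il17ra, gave -0.17 ± 0.09 (adjusted p = 0.892) with overlapping arrays, and from -0.10 without Scnn1b-Tg replicate 1 to -0.25 without replicate 2 of that genotype. A further probe set of Il17rd gave -0.17 ± 0.05 and was wholly lower in Scnn1b-Tg, with 78.3 to 83.0 in wild type and 69.7 to 73.9 in Scnn1b-Tg (adjusted p = 0.599 over all probe sets).

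The log2 fold changes of the 5 IL-17 ligands lay between -0.05 and 0.0082. Il17a, the cytokine of Th17 and γδ T cells, gave -0.03 ± 0.11, with a 95% interval from -0.29 to 0.23. Il17f gave -0.01 ± 0.05, with an interval from -0.13 to 0.10. Il17b had the largest absolute value among them at -0.05 ± 0.08, and its sign turned without Scnn1b-Tg replicate 3.

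Genes of the gp130 family, which includes IL-6, lay near 0 throughout. Il6 read 19.3 to 19.7 on both genotypes, next to the array minimum, with a log2 fold change of -0.0037 ± 0.04. A value this near the minimum bounds the signal on the array and does not show that the cytokine was absent. Il6st, which encodes the shared gp130 chain, had a mean of 564.0 ± 38.3 (SD, n = 3) for wild type and 564.4 ± 18.3 for the transgenic arrays. The log2 fold change of Il6st was 0.0027 ± 0.06, with a 95% interval from -0.14 to 0.15. Il6ra, the binding chain, gave 0.05 ± 0.09 and turned to -0.06 without wild type replicate 1. Il11 had the largest absolute value among the ligands at -0.04 ± 0.07, and Il31 and Il31ra gave 0.04 and 0.0041.

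In the IL-12 family, whose members steer T cells toward Th1 and Th17 states, 7 of 8 genes had a positive value, none above 0.10, but only 3 of 8 did after median centring. Il27 read 48.8, 54.4 and 52.7 in wild type and 55.1, 55.2 and 56.1 in Scnn1b-Tg, separate between genotypes at a log2 fold change of 0.09 ± 0.05 (SE; adjusted p = 0.892). Without wild type replicate 1 it was 0.05. It too overlapped after quantile normalization or median centring. Il12b, the shared p40 subunit of IL-12 and IL-23, gave -0.02 ± 0.05, and Il23a 0.02 ± 0.06. Il12rb1, the shared receptor chain, gave 0.07 ± 0.08 and Il27ra 0.07 ± 0.07.

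In the IL-10 family 5 of 10 genes had a positive and 5 a negative value (3 positive after median centring), and the genotypes overlapped for all 10. Il10ra, the chain that makes leukocytes responsive to the anti-inflammatory IL-10, had the largest at 0.12 ± 0.08 (SE; adjusted p = 0.909), but 0.06 when wild type replicate 1 was left out, 0.07 when Scnn1b-Tg replicate 3 was, and 0.18 when wild type replicate 3 was. Its partner Il10rb, which the IL-22 and interferon-λ receptors share, had a mean of 305.2 ± 8.64 (SD, n = 3) for wild type and 296.5 ± 10.2 for the transgenic arrays, a log2 fold change of -0.04 ± 0.05. Il10 itself read 21.4 to 24.5 and gave 0.03 ± 0.06, and Il20 0.03 ± 0.05. Probe sets that carry Il22 carry a further symbol and were left out. Of the interleukins outside these families, Il16, a chemoattractant of CD4 T cells, gave 0.01 ± 0.06. Il34, an alternative ligand of the CSF-1 receptor, gave 0.0033 ± 0.04.

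Many ligand genes lay near the array minimum, which limits what can be read from them. Of the 31 ligands 21 (67.7%) fell among the dimmest 33.3% of all genes, beside 10 of 31 receptor chains (32.3%). Among the 33 members outside that range, 23 had a positive value (69.7%, beside 55.8% of all genes outside it) and the median log2 fold change was 0.04, beside 0.013. After quantile normalization or median centring 17 of the 33 did (51.5%, beside 46.9% and 44.7% of all genes there). Of these 33 members 5 were higher at an unadjusted p under 0.05 (background 5.24%) and 0 lower (2.69%), and 6 were wholly higher (18.2%, beside 6.93% of all genes) and 0 wholly lower (beside 4.37%). The median was 0.016 over all receptor chains and 0.0096 over all ligands. For 63 of the 67 members the 95% interval lay within 0.5 of 0 in both directions, and for all 67 within 1. These intervals hold for log2 of the deposited values and were not computed with 16 subtracted from every intensity. That setting moved the dim genes Il1a from 0.12 to 0.36 and Il18 from -0.23 to -0.43.

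**Figure D3:**
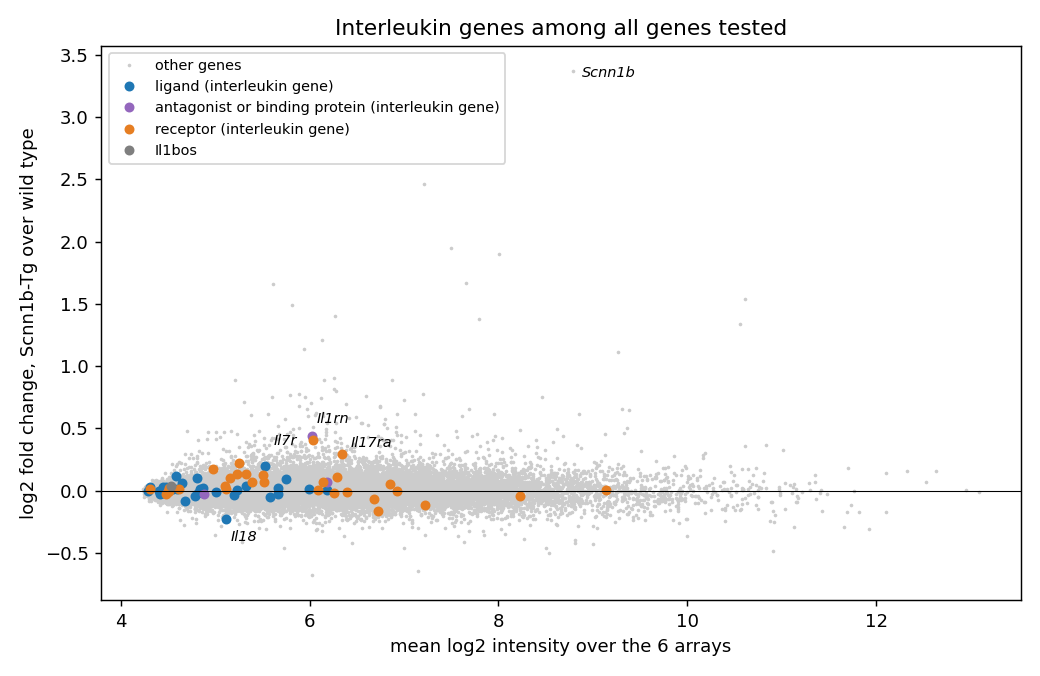
Log2 fold change of Scnn1b-Tg over wild type (y axis) against mean log2 intensity over the 6 arrays (x axis) for all 19935 genes in grey, with the interleukin genes coloured by role. The coloured points lie within the cloud of other genes, most ligands at the dim end on the left, and Scnn1b stands alone at 3.37.

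Genes that act beside the interleukins were taken from 5 lists, and no member of any was called in limma over all genes. The lists were chosen with earlier results of these data known, so their counts beside the background are descriptions only. Among 22 related cytokines and receptors, 12 had a positive value, with 5 higher and 1 lower at an unadjusted p under 0.05 (background 3.96% and 2.05%). The lower one was Csf3 at -0.18 ± 0.07. The leading one was Csf1r, the receptor of CSF-1 and IL-34 and a macrophage gene, at 0.37 ± 0.08 (SE; adjusted p = 0.376). Csf2rb2 and Csf2rb, the β chains for IL-3 and the shared one for IL-3, IL-5 and GM-CSF, gave 0.29 ± 0.08 and 0.31 ± 0.10 (adjusted p = 0.587 and 0.709); they are close paralogs, and their probes may share signal. Csf1 gave 0.14 ± 0.04. The genotypes were separate for these 4 genes. Of the 22 genes 5 were wholly higher (22.7%, beside 6.26% of all genes) and 2 wholly lower (9.09%, beside 4.41%).

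Of 21 genes of IL-1 and IL-17 receptor signalling, 18 had a positive value (53.2% of all genes did). The median log2 fold change was 0.09, beside 0.0052 over all genes. At an unadjusted p under 0.05, 4 were higher and 0 lower (background 3.96% and 2.05%). Zc3h12a, an RNase that degrades Il6 and other cytokine transcripts, read 44.4, 47.5 and 44.0 in wild type and 53.4, 53.4 and 51.02 in the transgenic lungs, which gave a log2 fold change of 0.22 ± 0.05 (adjusted p = 0.416). The NF-κB subunit genes Nfkb2 and Rel gave 0.26 ± 0.06 and 0.24 ± 0.06, and their genotypes were separate as well. Of the 21 genes 5 were wholly higher (23.8%, beside 6.26% of all genes) and 0 wholly lower (beside 4.41%). The values of this list were highest on Scnn1b-Tg replicate 3, 1 of the arrays that stood apart, with a mean deviation of 0.13 from the all-array mean. The deviation was -0.034 on Scnn1b-Tg replicate 1, within the wild-type range of -0.059 to -0.030, and 0.04 on replicate 2. Without both arrays that stood apart the median log2 fold change was 0.06.

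Of 13 inflammasome genes, which mature IL-1β and IL-18, 11 had a positive value (53.2% of all genes did), with a median of 0.09. Of the 13, 8 fell among the dimmest 33.3% of all genes. The mean deviation from the all-array mean was 0.11 on Scnn1b-Tg replicate 1, and 0.0056 and 0.018 on replicates 2 and 3. On the wild-type arrays it ran from -0.08 to -0.0070. At an unadjusted p under 0.05, 3 genes were higher (background 3.96%). These were the DNA sensor Aim2 (0.16 ± 0.05), the inflammasome receptor Naip2 (0.27 ± 0.10) and the adaptor Pycard (0.17 ± 0.07), with adjusted p-values of 0.729, 0.775 and 0.781. Nlrp3 gave 0.04 ± 0.05 and Casp1, the processing protease, -0.04 ± 0.08. Of 9 Janus kinases and STAT genes 7 had a positive value, and only Stat2 passed an unadjusted p under 0.05, at 0.13 ± 0.05 (adjusted p = 0.784). Of 15 inhibitors of cytokine signalling none did, and the feedback genes Socs1 and Socs3 gave 0.03 ± 0.09 and 0.03 ± 0.11.

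Marker genes of leukocytes that make or answer interleukins are given beside these values, and their part in the results was not tested. The marker lists too were chosen with earlier results of these data known. Of 12 macrophage markers 11 had a positive value, with a median log2 fold change of 0.24, and their summed intensity ran from 1819 to 2186 on wild-type and from 3299 to 4005 on transgenic arrays. Chil3 alone made up much of that sum (mean 963 against 2428), and the pan-macrophage marker Cd68 read 152 to 163 and 197 to 200.3. Il1rn and Csf1r are macrophage genes among their other sources. Of 16 T and NK cell markers 8 had a positive and 8 a negative value, and their sum ran from 630.3 to 657 and from 654 to 669. At an unadjusted limma p under 0.05, 3 of the 16 were higher and 0 lower (background 3.96% and 2.05%). Wholly higher were 2 and wholly lower 2 (beside 6.26% and 4.41% of all genes), and the largest log2 fold change was 0.30. Cd3e gave -0.03 ± 0.11 and Cd3g 0.16 ± 0.06, beside 0.41 for Il7r. Of 14 neutrophil markers 7 had a positive value, with sums of 609.9 to 745 and 845 to 1099, in which Retnlg took a large part (143 against 379). Without Retnlg the sums overlapped, at 516 to 561 and 531 to 599, and Ly6g gave 0.04 ± 0.08 and S100a8 -0.08 ± 0.12. Of the 14 markers 3 were higher and 1 lower at an unadjusted limma p under 0.05 (background 3.96% and 2.05%). No marker of these 3 lists was at the array minimum on any array, but some were dim. Among the dimmest 33.3% of all genes were 1 of 12 macrophage, 6 of 16 T and NK cell and 6 of 14 neutrophil markers.

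Summed levels of the remaining lists are given for the same purpose. For 6 eosinophil markers, 5 of them with a positive value, the sum ran from 250.8 to 255 in wild type and from 302 to 486 in Scnn1b-Tg. For 9 dendritic cell markers, 8 positive, it ran from 459 to 485 and from 494 to 568. For 8 B cell markers, 6 positive, it ran from 400.4 to 587 and from 481 to 612, and for 11 mast cell and basophil markers, 8 positive, from 909.8 to 1045 and from 959 to 993. The sums of macrophage, neutrophil, eosinophil and dendritic cell markers did not overlap between genotypes. Those of B cell, mast cell and basophil, and T and NK cell markers did. Once Retnlg was left out, the neutrophil sums overlapped too. No macrophage sum was taken without Chil3, so the macrophage and neutrophil lists were not treated alike. A sum can rest on 1 marker, which was not tested for the macrophage, eosinophil and dendritic cell lists. The largest log2 fold changes of the eosinophil and dendritic cell lists were 1.40 and 0.58. At an unadjusted limma p under 0.05, 3 of the 6 and 1 of the 9 were higher (background 3.96%).

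**Figure D4:**
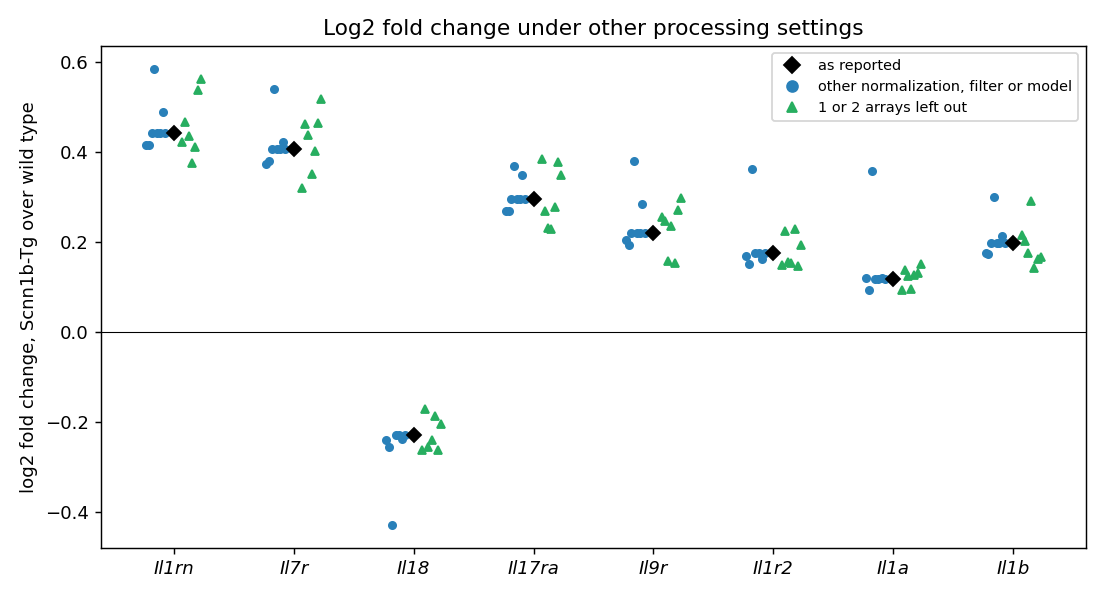
Log2 fold change of Scnn1b-Tg over wild type (y axis) of the 8 interleukin genes with an unadjusted limma p under 0.05, as reported (black), under 8 other normalizations, filters and models (blue; fewer where a filter removed the gene) and with 1 or 2 arrays left out (green). Each gene stays on its side of 0, and the blue point farthest from 0 for each gene is the setting that subtracts 16 from every intensity before log2.

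The 8 genes with an unadjusted p under 0.05 kept their sign under each of the 15 other settings that measured them (the filter on dim genes removed Il1r2, Il1a and Il18), and no member was called under any of the 15. The lowest adjusted p of any member was 0.0879, for Il1rn without Scnn1b-Tg replicate 3. With 16 subtracted from every intensity before log2, the value of Il1rn was 0.59 (adjusted p = 0.126), that of Il7r 0.54 (adjusted p = 0.225), that of Il18 -0.43 (adjusted p = 0.455) and that of Il1a 0.36 (adjusted p = 0.528). Over all alternatives the adjusted p of Il18 lay between 0.420 and 0.9999 and that of Il1a between 0.526 and 0.9999. Fold changes of dim genes therefore depend on the constant below the signal, which is not known for these values.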

How the data were processed

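The authors deposited 1 linear intensity per probe set and sample. The submitters' processing notes name RMA; its version, its settings and any added constant: not given in the sources used here. Per the labels, extraction was with Trizol. Of 28815 probe sets 21780 had exactly 1 symbol; 1605 had several and 5430 were not listed, and these were left out. The brightest probe set per gene (by mean log2) was taken, giving 19935 genes. All 67 members matched the RefSeq gene table by Entrez identifier.

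The deposited intensities were converted to log2, and a linear model with genotype as its only term was fitted by limma 3.58.1 (lmFit, eBayes; R 4.3.3; 6.99 moderated degrees of freedom). P-values are 2-sided and Benjamini-Hochberg adjusted across the 19935 genes, with calls at an adjusted p under 0.05. A check of the fit on simulated data set its pass mark for recovery on changes larger than that of any member. It therefore does not show how often changes of the members' size would be called. Errors are SE of log2 fold changes or SD of 3 arrays, whose number limits precision. Named were the 20 members with the smallest p-values, the ligand and receptor with the largest absolute value in each family, and their partners; of each pathway list, up to 3 genes with the smallest p. Other members and genes given beside them (such as Il31, Casp1, Cd3e and Ly6g) were picked after their values were seen. Members and lists were chosen with earlier results of these data known. The labels give no batch. The closing section gives the alternatives tried.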

Additional observations from a re-analysis of the deposited data

How the results depend on the processing

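No interleukin gene was called under any of 15 alternatives, which were other normalizations, filters, variance models, the replicate block, and arrays left out. The count of called genes over the whole array was 1; it was 39 without the dimmest 33.3% of genes, 23 with 16 subtracted, 36 with an intensity trend and robust variance, 0 to 5 when 1 array was dropped (0 when wild type replicate 3 was dropped and 5 for Scnn1b-Tg replicate 3), and 6 when both arrays standing apart were dropped. The replicate numbers share only a number (correlation of same-numbered deviations 0.026 to 0.039); with a replicate block 3 genes were called and 0 members. Of 11 members with separate genotypes, 8 kept the separation after quantile normalization and 7 after median centring. Members wholly higher numbered 10; the count was 7 (with 2 lower) after quantile normalization, 6 after median centring and 6 without the dimmest 33.3% of genes (0 wholly lower, with 33 members tested), 13 to 16 over single arrays left out (19.4% to 23.9%, beside 9.88% to 13.6% of all genes) and 24 without both arrays (35.8%, beside 19.1%). Beside the 7, 6 and 6, all genes gave 5.49%, 3.81% and 6.93%. Members wholly lower numbered 1; the count was 2 with the mean over probe sets, 2 to 5 over single arrays left out (2.99% to 7.46%, beside 7.98% to 10.7% of all genes) and 6 without both arrays (8.96%, beside 16.8%). Fewer arrays separate more easily by construction. The median log2 fold change of members was -0.015 after median centring (all genes -0.020), 0.035 without the dimmest 33.3% of genes, 0.032 with 16 subtracted and 0.033 without both arrays, and lay between 0.0031 and 0.022 with single arrays left out. Of all 67 members 39 turned sign under at least 1 alternative, none of them with a main value further from 0 than the 0.098 of Il21r. After quantile normalization 38 and after median centring 27 of 67 were positive, instead of 42 (56.7%, 40.3% and 62.7%, beside 47.2%, 38.6% and 53.2% of all genes). Of the 27 members chosen by the naming rule 4 turned. Il16 (0.01) read -0.023 with quantile normalization, -0.015 with median centring and between -0.048 and 0.056 with single arrays left out. Il17b turned to 0.0053 with array weights and 0.054 without both arrays, and lay between -0.11 and 0.018 with single arrays left out. In those fits Il20 lay between -0.0019 and 0.051 and Il6ra between -0.057 and 0.12. The cause of these turns was not tested. For dim members, signal over background limits what can be measured.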
